A study of Mus musculus with 18 samples.

Results

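Galectins are lectins that bind sugar chains carrying beta-galactosides. They are made in the cytosol and leave the cell by an unconventional route, and they then cross-link glycoproteins on cell surfaces and in the matrix or, inside the cell, bind sugars that become exposed on damaged vesicles. Galectin-3 is strongly made by phagocytic microglia and macrophages, galectin-1 by many connective tissue, vascular and glial cells, and galectin-9 and the galectin-3 binding protein are known as interferon-inducible genes. The transcripts of this gene family were examined in whole mouse retina after damaging light, with and without TD139, a small molecule that inhibits galectin-3. The study could not exclude that TD139 also targeted galectin-1, for which earlier reports had shown cross-reactivity. Because TD139 did not protect mice without galectin-3, the study concluded that its effects came mainly through galectin-3. The members were chosen by gene symbol and comprised Lgals1, Lgals2, Lgals3, Lgals4, Lgals8, Lgals9, Lgals12, the galectin-like gene Lgalsl and Lgals3bp, the gene of the galectin-3 binding protein, 9 of the 23420 gene symbols in the deposited tables. Of these, 8 had enough reads to be among the 15196 genes tested.

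All 9 mice were wild-type BALB/cJ, an albino strain, 8 to 10 weeks old and of both sexes. The 3 naïve mice received no light, and injections are not stated for them. The 3 vehicle-treated mice received DMSO and the 3 TD139-treated mice 15 mg/kg TD139 in DMSO, injected into the peritoneum every day from the day before exposure. Both of these groups were kept in the dark for 16 h, exposed to 15000 lux of white light for 1 h with dilated pupils, and their retinas were taken 4 days later. No group received light without injections. If the naïve mice were not injected, the effects of light and of DMSO cannot be told apart.

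Every mouse had between 26171887 and 30201517 reads counted on genes, and levels were expressed as CPM, in which counts are divided by library size and a TMM factor that makes the libraries comparable. RNA was taken from whole retinas, in which fewer cells of a type and less RNA per cell cannot be told apart. The summed level of 6 rod photoreceptor markers, which define the tissue, was 66909 to 76624 CPM in naïve mice, 38765 to 54071 with vehicle and 54619 to 68128 with TD139. Vehicle-treated mouse 2 stood apart, with 10295 CPM over 7 lens markers against 39.1 to 473 in the other 8 mice. Markers of cells that could have entered from blood were near 0. The summed level of 5 monocyte markers was at most 4.03 CPM, of 4 neutrophil markers at most 0.437 CPM and of 5 lymphocyte markers at most 1.81 CPM, and Ccr2, which marks blood monocytes, had 0 counts in 6 of the 9 mice and at most 9. Cd3e of T cells and Ms4a1 of B cells had 0 counts in every mouse.

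In naïve retina, Lgalsl was the most abundant transcript of the family per length. Its protein resembles galectins but lacks the residues with which they bind galactosides. Its level, in CPM per kb of the longest annotated transcript, was 84.9 ± 4.98 (SD, n = 3), followed by Lgals1 with 22.8 ± 4.05 and Lgals8 with 15.8 ± 1.43. Lgals3 (5.41 ± 1.62) and Lgals3bp (5.27 ± 0.849) overlapped between mice and came next. Lgals4 (3.18 ± 0.400), Lgals9 (1.66 ± 0.177) and Lgals12 (0.561 ± 0.191) followed, each separated from its neighbours in every mouse, and Lgals2 had no count in any naïve mouse.

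The order was different in vehicle-treated mice. Here Lgals1 had 73.5 ± 12.5 CPM per kb and Lgalsl 66.7 ± 4.91, and their ranges over mice overlapped. They were followed by Lgals3 with 33.2 ± 12.3 and Lgals3bp with 21.1 ± 11.2, which also overlapped each other. Lgals8 (14.9 ± 0.506) lay inside the range of Lgals3bp, and Lgals9 stood at 7.30 ± 4.66, above Lgals4 and Lgals12 in every mouse. In TD139-treated mice Lgalsl was again first with 97.2 ± 19.2, Lgals8 (17.9 ± 2.13) and Lgals1 (16.6 ± 8.77) overlapped, and so did the run of Lgals3bp (5.01 ± 2.63), Lgals3 (4.06 ± 2.99), Lgals4 (3.11 ± 0.245) and Lgals9 (2.04 ± 0.984) from one neighbour to the next.

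Summed over the 9 members, the family level was 140 ± 4.12 CPM per kb in naïve mice, 220 ± 34.8 with vehicle and 147 ± 9.87 with TD139 (SD, n = 3 each). Lgalsl made up 60.8% ± 2.80 of this sum in naïve mice, 31.0% ± 6.50 with vehicle and 66.1% ± 10.4 with TD139. The share of Lgals1 was 16.3% ± 2.88, 33.4% ± 1.53 and 11.4% ± 6.40 in the same order, and that of Lgals3 was 3.86% ± 1.06, 14.8% ± 2.98 and 2.80% ± 2.15. Shares of one sum are not independent of each other.

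**Figure D1:**
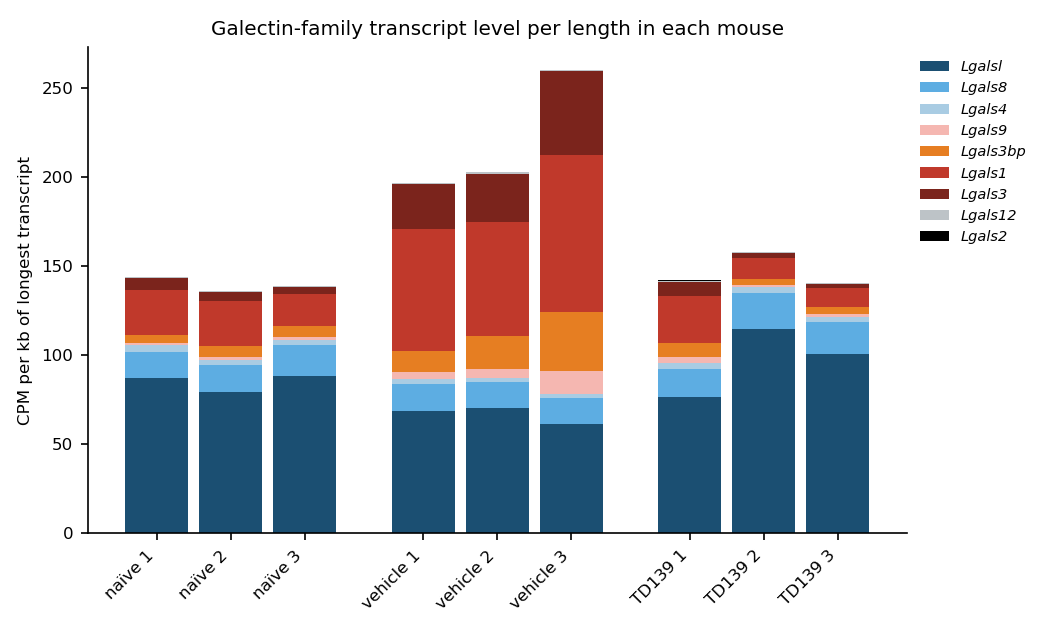
Stacked bars show, for each of the 9 mice, the level of every family member in CPM per kb of its longest annotated transcript. The bars of the vehicle-treated mice reach 197 to 260 CPM per kb with large parts of Lgals1 and Lgals3, whereas those of naïve and TD139-treated mice end between 136 and 158 and consist mostly of Lgalsl.

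Lgals3 encodes galectin-3, the only galectin with a sugar-binding domain joined to a long flexible tail through which it forms multimers. It is the galectin that TD139 was given to inhibit. The gene lies on chromosome 14 (GRCm38, 47367751 to 47386160, plus strand). Its counts were 264, 193 and 153 in the naïve mice, 1011, 1077 and 2001 in the vehicle-treated mice and 286, 112 and 70 in the TD139-treated mice. Each vehicle-treated mouse was above all naïve and all TD139-treated mice, and the latter groups overlapped. The mean level was 7.67 ± 2.29 CPM in naïve mice, 47.1 ± 17.4 with vehicle and 5.76 ± 4.24 with TD139 (SD, n = 3 each). Compared to naïve mice, Lgals3 rose 6.14-fold in vehicle-treated mice (log2 fold change 2.62, SE 0.52, adjusted p = 0.0289 by the quasi-likelihood test of edgeR with Benjamini-Hochberg adjustment over all tested genes). In TD139-treated mice it fell 8.18-fold compared to vehicle (log2 fold change -3.03, SE 0.53, edgeR adjusted p = 0.00727).

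Lgals1 encodes galectin-1, which acts as a dimer of identical subunits. It lies on chromosome 15 (78926725 to 78930465, plus strand) and was counted 521, 535 and 395 times in naïve mice, 1530, 1457 and 2090 times with vehicle and 576, 280 and 221 times with TD139. Again all vehicle-treated mice were above all others, and TD139-treated mouse 1 was the highest of its group. Mean levels were 18.2 ± 3.24, 58.8 ± 10.03 and 13.3 ± 7.01 CPM (SD, n = 3 each). Lgals1 rose 3.23-fold with light and vehicle (log2 fold change 1.69, SE 0.32, edgeR adjusted p = 0.0246) and fell 4.43-fold in TD139-treated compared to vehicle-treated mice (log2 fold change -2.15, SE 0.33, edgeR adjusted p = 0.00568).

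Lgals9 encodes galectin-9, which carries a pair of different sugar-binding domains on 1 chain and is a ligand of the immune receptor encoded by Havcr2. It lies on chromosome 11 (78962974 to 78984946, minus strand). Its counts were low in naïve mice, with 60, 73 and 77, and reached 184, 229 and 597 with vehicle and 135, 59 and 67 with TD139. No vehicle-treated mouse overlapped with a mouse of another group, but mouse 3 of that group was far above the other two. The levels were 2.63 ± 0.280, 11.6 ± 7.39 and 3.24 ± 1.56 CPM (SD, n = 3 each). Lgals9 rose 4.40-fold with light and vehicle (log2 fold change 2.14, SE 0.45, edgeR adjusted p = 0.0268) and fell 3.58-fold with TD139 compared to vehicle (log2 fold change -1.84, SE 0.45, edgeR adjusted p = 0.0140).

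Lgals3bp encodes a secreted glycoprotein with a scavenger receptor domain that binds galectins through its sugar chains. It lies on the same chromosome as Lgals9 (118392751 to 118402092, minus strand). The counts were 260, 357 and 365 in naïve mice, 756, 1210 and 2315 with vehicle and 505, 216 and 223 with TD139. The vehicle-treated mice were above all others and far apart among themselves, with mouse 1 lowest and mouse 3 highest. Levels were 12.3 ± 1.98, 49.2 ± 26.0 and 11.7 ± 6.13 CPM (SD, n = 3 each). Lgals3bp rose 4.01-fold with light and vehicle (log2 fold change 2.00, SE 0.46, edgeR adjusted p = 0.0420) and fell 4.21-fold with TD139 compared to vehicle (log2 fold change -2.07, SE 0.46, edgeR adjusted p = 0.0141).

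**Figure D2:**
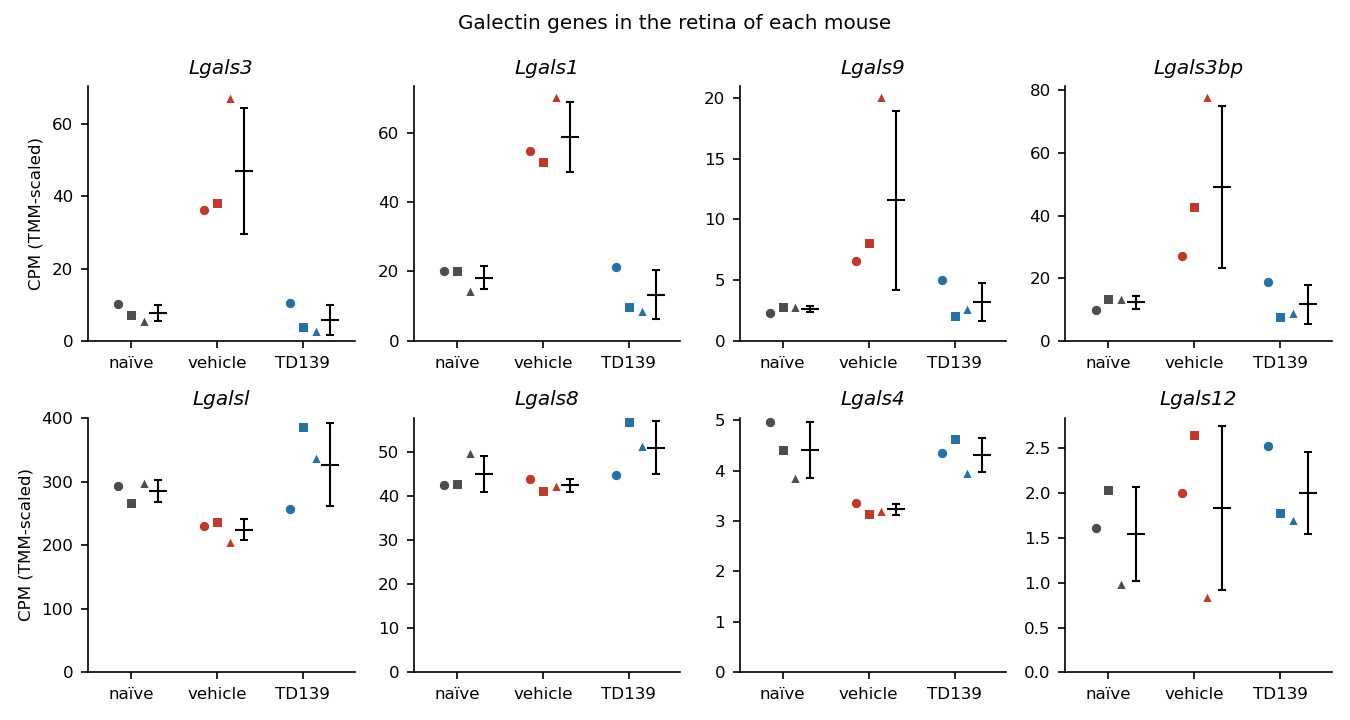
Each panel plots the CPM (linear axis from 0) of 1 gene in the 3 mice of each group, with a circle for mouse 1, a square for mouse 2 and a triangle for mouse 3, and the mean ± SD as a black bar. In the upper row all vehicle-treated mice lie above all other mice, with mouse 3 highest, whereas in the lower row the groups are close or overlap.

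Vehicle-treated mouse 3 had the highest and TD139-treated mouse 1 the highest level of its group for all 4 of these genes. Mouse 3 was also the only vehicle-treated mouse with a high level of Xist (922 CPM, against at most 1.75 in mice 1 and 2), which is expressed in females, and Xist was high in naïve mice 2 and 3 (1009 and 1098 CPM) and TD139-treated mouse 2 (2062 CPM). The part of sex in these results was not tested. Without vehicle-treated mouse 3, none of the 4 calls against naïve mice was kept, with log2 fold changes of 2.27 for Lgals3, 1.54 for Lgals1, 1.48 for Lgals9 and 1.51 for Lgals3bp and edgeR adjusted p-values from 0.0681 to 0.0866. The 4 calls were likewise lost when any naïve mouse was left out, at log2 fold changes of 1.56 to 2.88 and adjusted p-values from 0.0714 to 0.121. Calls were lost across all tested genes too, where 1185 were called with all mice, but 84 without vehicle-treated mouse 3 and 91, 1 and 217 without naïve mouse 1, 2 or 3. Without vehicle-treated mouse 1, where 249 genes were called in all, the calls of Lgals1 and Lgals3 were lost (edgeR adjusted p = 0.0595 and 0.0617). Without vehicle-treated mouse 2, the one with the lens genes, that of Lgals3bp was lost (log2 fold change 2.09, adjusted p = 0.0507), and so it was without TD139-treated mouse 3 (2.01, adjusted p = 0.0565), without a filter on low counts (2.01, adjusted p = 0.0643) and with the replicate number as a block (1.95, adjusted p = 0.0895).

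The decrease with TD139 depended less on single mice for Lgals1 and Lgals3, which passed the test without any 1 of the 9 mice, at log2 fold changes of -2.67 to -1.92 and -3.82 to -2.69. Lgals3bp and Lgals9 did not pass it without TD139-treated mouse 2 (edgeR adjusted p = 0.0607 and 0.0648) or mouse 3 (adjusted p = 0.0595 and 0.0619), where 1626 and 1917 of all tested genes were called instead of 5072. Without vehicle-treated mouse 3 the change of Lgals9 shrank from -1.84 to -1.18 (edgeR adjusted p = 0.0444).

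The remaining members had smaller fold changes. Lgalsl lies on chromosome 11 (20823576 to 20831056, minus strand) and had 7618, 7063 and 8106 counts in naïve mice, 6444, 6697 and 6113 with vehicle and 6948, 11078 and 8542 with TD139. The vehicle-treated mice were below all others. The level was 285 ± 16.7 CPM in naïve and 224 ± 16.5 in vehicle-treated mice, a difference that did not pass the test (log2 fold change -0.35, SE 0.14, edgeR adjusted p = 0.124), whereas it passed after correction for transcript length and GC content (-0.41, adjusted p = 0.0370) and without TD139-treated mouse 1 (-0.34, adjusted p = 0.0435). With the replicate block added to the correction it did not pass (-0.41, edgeR adjusted p = 0.0503). In TD139-treated mice Lgalsl was at 327 ± 64.6 CPM and rose 1.46-fold compared to vehicle (log2 fold change 0.54, SE 0.14, edgeR adjusted p = 0.0134). Across genes, log2 fold changes in this comparison rose with transcript length (Spearman's rho 0.490 over 15070 genes, which are not independent), and the longest transcript has 3362 bases for Lgalsl and 800 for Lgals1. With the correction for length and GC content, Lgalsl was at 0.43, past the threshold, and Lgals1 at -1.60. The call of Lgalsl was lost without vehicle-treated mouse 3 (edgeR adjusted p = 0.0549), TD139-treated mouse 2 (0.0639) or TD139-treated mouse 3 (0.0537).

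Lgals8 encodes galectin-8, with a pair of sugar-binding domains, which senses vesicles broken open in the cytosol. It lies on chromosome 13 (12439415 to 12464944, minus strand), where exons of Heatr1 on the opposite strand overlap it. It had 1102 to 1353 counts in naïve mice, 1162 to 1256 with vehicle and 1205 to 1631 with TD139, and the naïve and vehicle-treated mice overlapped. Its log2 fold change was -0.08 (SE 0.11, edgeR adjusted p = 0.656) for vehicle compared to naïve and 0.26 (SE 0.11, adjusted p = 0.0846) for TD139 compared to vehicle. The second of these passed the test with limma voom (0.29, adjusted p = 0.0287), with the correction for length and GC content (0.35, adjusted p = 0.0452) and without TD139-treated mouse 1 (0.35, adjusted p = 0.0293). With the replicate block added to the correction it did not pass (0.34, edgeR adjusted p = 0.0572).

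Lgals4, best known from the gut epithelium, lies on chromosome 7 (28833854 to 28841708, plus strand) and had 129, 117 and 105 counts in naïve mice, 94, 89 and 95 with vehicle and 117, 133 and 100 with TD139. The vehicle-treated mice were below all others by a small margin, with a log2 fold change of -0.45 (SE 0.19, edgeR adjusted p = 0.164) compared to naïve mice and of 0.41 (SE 0.19, adjusted p = 0.117) for TD139 compared to vehicle. With the correction for length and GC content, both differences passed the test (-0.63 with adjusted p = 0.0466, and 0.94 with adjusted p = 0.0120). With the replicate block added to the correction, the first did not pass (edgeR adjusted p = 0.0713) and the second did (0.0204). Its close copy Lgals6 had at most 4 counts in a mouse, and reads that fit both genes cannot be told apart.

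Lgals12, known from fat cells, lies on chromosome 19 (7596660 to 7607193, minus strand) and had 27 to 54 counts in naïve mice, 25 to 75 with vehicle and 43 to 68 with TD139. The groups overlapped, with log2 fold changes of 0.24 (SE 0.42, edgeR adjusted p = 0.738) and 0.13 (SE 0.42, adjusted p = 0.829). Lgals2, another gut galectin, lies on chromosome 15 (78850860 to 78855529, minus strand), overlaps exons of Cdc42ep1 on the opposite strand, and had 1 count in 3 mice and 0 in the other 6. A count of 3, which a mouse without a read allows, corresponds to 0.0993 to 0.115 CPM, so changes of Lgals2 were not detectable at this depth. Of the galectins outside the chosen members, Lgals7 had 13 counts in vehicle-treated mouse 2 and at most 3 elsewhere. Grifin, a galectin of lens fibers, had 1397 counts in the same mouse and 1 to 61 in the other 8.

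Counted over the members, 4 of the 8 tested were called higher with light and vehicle than in naïve mice, where 4.91% of all tested genes were, and 0 were called lower, where 2.89% were. Among the genes called higher, Lgals3, Lgals9 and Lgals3bp also passed the study's cut-off, a log2 fold change of 2 in size, in this direction (3 of 8, against 1.24% of all tested genes). Lgals3bp lay at the cut-off itself (2.00), and Lgals3 alone passed it with the correction for length and GC content (1.94 for Lgals9 and 1.81 for Lgals3bp) and with limma voom (1.77 and 1.64). Without vehicle-treated mouse 3, Lgals9 and Lgals3bp were likewise under 2. The values of both groups did not overlap for 6 of 8 members, against 33.3% of all tested genes. The median log2 fold change was 0.97 over the 8 members and -0.00 over all tested genes.

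In TD139-treated compared to vehicle-treated mice, 4 of 8 members were called lower, where 16.2% of all tested genes were, and 1, Lgalsl, was called higher, where 17.2% were. Lgals1, Lgals3 and Lgals3bp also passed the cut-off downwards (3 of 8, against 1.53%). With the correction for length and GC content (-1.60 for Lgals1 and -1.70 for Lgals3bp) and without TD139-treated mouse 2 (-1.97 and -1.84), TD139-treated mouse 3 (-1.92 and -1.91) or vehicle-treated mouse 3, Lgals3 was the 1 member left past it. The groups did not overlap for 7 of 8 members, against 51.5% of all tested genes, and the median log2 fold change was -0.86 over the members and -0.02 over all tested genes. This comparison and the one before share the vehicle-treated mice, so that a high value in these mice enters both.

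Compared to naïve mice, 0 of 8 members were called higher or lower in TD139-treated mice by edgeR, where 2.72% of all tested genes were called higher and 2.38% lower. The same count was 0 with DESeq2, which called 17.3% of all tested genes, and 3 with limma voom, which called 36.0%, and 0 members had an unadjusted p under 0.05 against 4492 of the 15196 genes. For no member were the groups without overlap, against 32.2% of all tested genes. Log2 fold changes were -0.46 (SE 0.32, edgeR adjusted p = 0.379) for Lgals1, -0.41 (SE 0.51, adjusted p = 0.631) for Lgals3, -0.07 (SE 0.46, adjusted p = 0.934) for Lgals3bp and 0.30 (SE 0.45, adjusted p = 0.698) for Lgals9. A p above the threshold does not show that levels were equal. Without TD139-treated mouse 1, Lgals1 was lower than in naïve mice (log2 fold change -0.97, edgeR adjusted p = 0.0260), and Lgals3 had a log2 fold change of -1.19 (adjusted p = 0.0665).

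**Figure D3:**
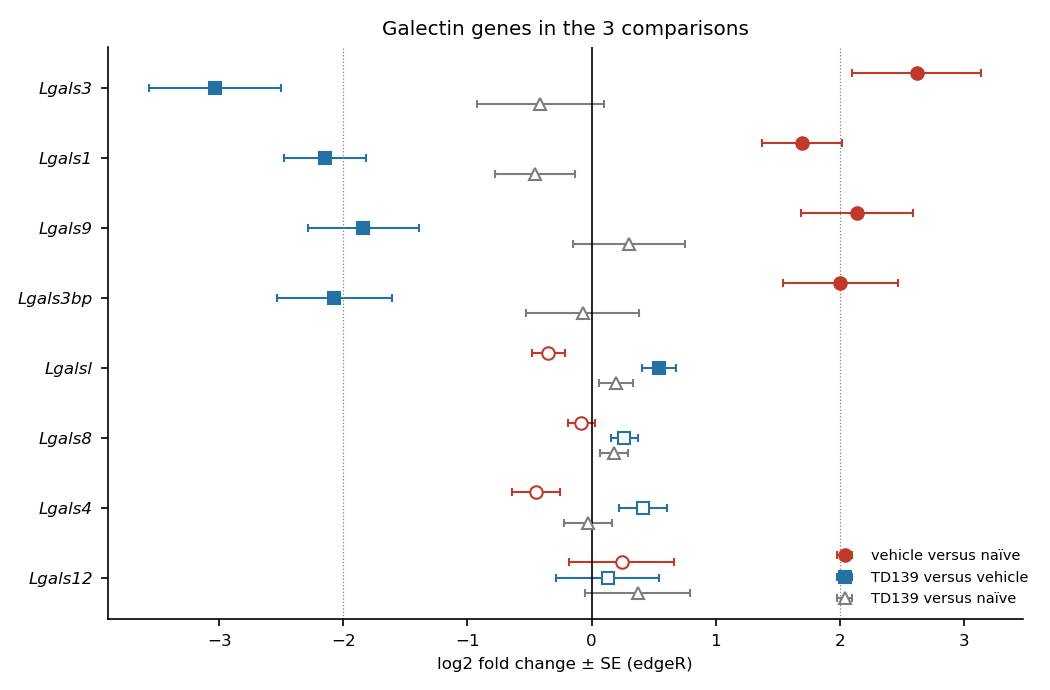
Points give the log2 fold change ± SE of 8 genes in the 3 comparisons, filled where the edgeR adjusted p is under 0.05, and dotted lines mark a log2 fold change of 2 in size. Lgals3, Lgals1, Lgals9 and Lgals3bp lie between 1.69 and 2.62 with light and vehicle and between -3.03 and -1.84 with TD139 compared to vehicle, while all points of TD139 against naïve mice are open.

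Most markers of microglia moved with these genes. Of 10 microglial markers, 7 rose in vehicle-treated compared to naïve mice, where 4.91% of all tested genes did. With TD139 compared to vehicle 8 fell, where 16.2% of all tested genes did. P2ry12 and Siglech were called in neither comparison, and Cd68 was not called in the first (edgeR adjusted p = 0.0553). The summed level of the 10 markers was 55.4 to 62.2 CPM in naïve mice, 166 to 236 with vehicle and 44.3 to 107 with TD139. The mice highest within their groups were again vehicle-treated mouse 3 and TD139-treated mouse 1. Of 7 markers of Müller glia and astrocytes, Slc1a3, Aqp4 and Vim rose, and Gfap and Vim fell with TD139 compared to vehicle, whereas Glul, Rlbp1 and Kcnj10 were called in neither comparison. Aqp4 had a log2 fold change of -0.09 with TD139 compared to vehicle (edgeR adjusted p = 0.680) and remained above naïve mice (0.70, adjusted p = 0.0420). The 7 markers had summed levels of 3508 to 4155, 4558 to 5034 and 3921 to 4525 CPM. Markers of vessel cells summed to 191 to 270, 350 to 491 and 249 to 482 CPM, mostly from Kdr (mean 335 CPM with vehicle), and 0 of 6 were called in vehicle-treated compared to naïve mice, while Cldn5 fell and Rgs5 rose with TD139 compared to vehicle. Markers of the pigment epithelium summed to 101 to 242, 208 to 434 and 120 to 174 CPM, with 0 of 5 tested called in the first of these comparisons, and Rpe65 and Ttr fell in the second. The share of reads outside genes was 19.1 to 19.9% in naïve mice, 16.5 to 19.4% with vehicle and 21.3 to 22.8% with TD139, so that TD139-treated mice were above all others. The part of these cells and of this share in the galectin results was not tested beyond the following comparison with microglia.

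To put the members beside the microglial markers, log2(CPM + 0.1) of each member minus log2 of the summed CPM of the 10 markers was compared between groups with an exact permutation test. With 3 against 3 mice this exact test cannot go below p = 0.1, and over its 24 comparisons the smallest Benjamini-Hochberg value was 0.185, so that none could pass. Lgals3 stood at 10.01 to 16.3% of the marker sum in naïve mice, 18.1 to 28.5% with vehicle and 6.25 to 9.88% with TD139, with no overlap between any groups. The log2 difference was 0.80 for vehicle compared to naïve, -1.52 for TD139 compared to vehicle and -0.72 for TD139 compared to naïve mice (two-sided exact permutation p = 0.1 each, the smallest possible). Members not called higher with light and vehicle reached the same p in the first 2 comparisons, with larger differences of opposite sign. These were -2.21 and 2.07 for Lgals4, -1.86 and 1.92 for Lgals8, -1.63 and 1.90 for Lgals12, and -2.13 and 2.19 for Lgalsl.

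Lgals1 stood at 25.8 to 36.4% of the marker sum in naïve mice, 27.4 to 31.0% with vehicle and 18.9 to 19.9% with TD139. Here naïve and vehicle-treated mice overlapped (log2 difference -0.09, exact permutation p = 0.6), whereas TD139-treated mice were below both (-0.58 and -0.67, exact permutation p = 0.1 each). Lgals9 and Lgals3bp overlapped between all groups on this scale, with log2 differences of 0.15 and 0.09 for vehicle compared to naïve (exact permutation p = 0.9 and 0.8) and of -0.06 and -0.38 for TD139 compared to vehicle (p = 0.9 and 0.5). These values depended on the markers. Against Aif1 alone, which encodes Iba-1, the differences of Lgals3 shrank to 0.32, -0.55 and -0.23, and those of Lgals1, Lgals3bp and Lgals9 became -0.57, -0.39 and -0.34 for vehicle compared to naïve and 0.39, 0.59 and 0.91 for TD139 compared to vehicle.

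**Figure D4:**
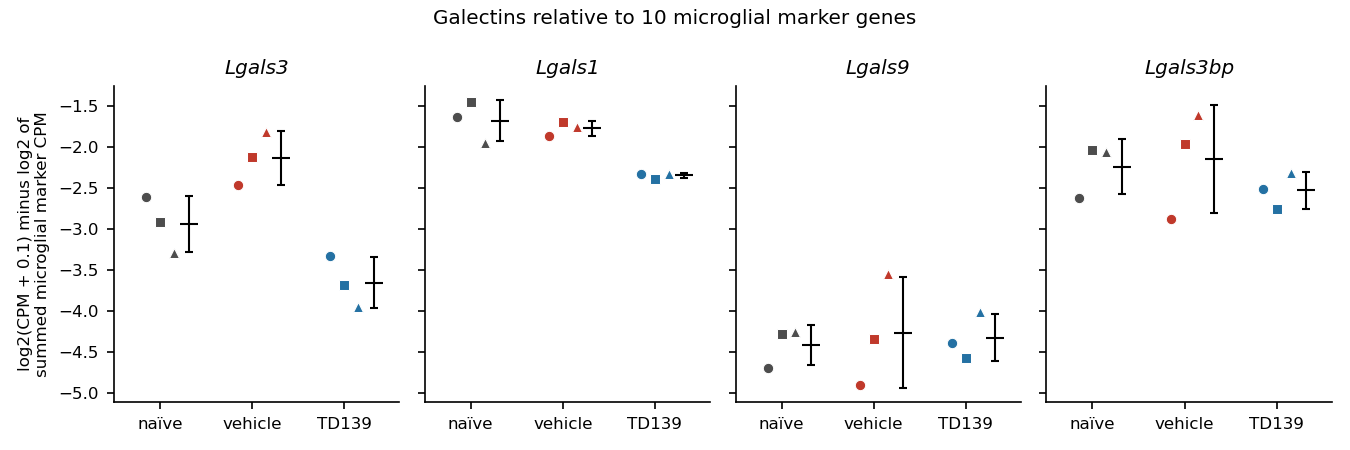
Points show, for each mouse, log2(CPM + 0.1) of a gene minus log2 of the summed CPM of 10 microglial markers, with circle, square and triangle for mice 1, 2 and 3 and black bars for mean ± SD. Lgals3 separates all 3 groups, Lgals1 is lowest in TD139-treated mice, and Lgals9 and Lgals3bp overlap between the groups.

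Across the 9 mice, the 4 genes that rose with light and vehicle fell into pairs. As a description over mice that share their groups, Pearson's r of log2(CPM + 0.1) was 0.993 between Lgals1 and Lgals3 and 0.981 between Lgals3bp and Lgals9, against 0.885 to 0.938 between genes of different pairs. After subtracting the group means, r was 0.958 and 0.968 within the pairs and 0.685 to 0.713 between them, with 3 groups of 3 mice as the only points. Ranked among 13116 genes that averaged 50 counts or more, those most like Lgals3 were Ltbr (r = 0.996), Htr3a, H2-D1, Lgals1 and Timp1, and those most like Lgals1 were Efemp2 (r = 0.995), Ltbr, Cdc42ep4, Ftl1 and Lgals3. Most like Lgals3bp were H2-T23 (r = 0.995), Bst2, Xaf1, Irf1 and Shisa5, and most like Lgals9 were Eif2ak2 (r = 0.993), Ddx58, Xaf1, Lgals3bp and Nsg1.

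The members outside these pairs had other neighbours. Lgalsl was most like Zfp420 (r = 0.990), D16Ertd472e, Zbtb6, Nfatc3 and Zfp770, and ran against Lgals1 (r = -0.943) and Lgals3 (r = -0.916). Lgals8 was most like Med13 (r = 0.978), Gspt1, Rps6kb1, Exoc5 and Cnot7, and Lgals4 was most like Asrgl1 (r = 0.954), Luc7l, 4930581F22Rik, Zswim3 and Ndrg3. The r of 0.855 between Lgals8 and Lgalsl and of 0.786 after subtracting group means was the highest among these 3 members. Neither these r values nor those of the pairs were corrected for transcript length or GC content. The longest transcript has 3362 bases for Lgalsl and 2843 for Lgals8, against 800 for Lgals1. The part of transcript length in these likenesses was not tested.

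Since Lgals3bp and Lgals9 formed a pair, the promoters of the members were searched for the core to which interferon regulatory factors bind, AANNGAAA on either strand. RefSeq promoter windows of GRCm38.p6 (250 bases before to 50 after the start) were held for 7 of the 9 members, all but Lgals1 and Lgals12. The core was present in 2 of these 7 windows, those of Lgals9 (3 matches) and Lgals3bp (1 match), and in 23.9% of all 32851 windows, a share near that of the members. The 4 stretches are shown because they are the matches within the searched windows. Each has 30 bases, is read 5′ to 3′ along the gene's minus strand, and has the 8 matching bases in capitals, as the core itself or as its reverse complement.
Lgals9, first matching base at -151, chr11:78985057-78985086: cagagcacaggAAGGGAAAgtcaaggcaga
Lgals9, first matching base at -55, reverse complement, chr11:78984961-78984990: ctgacatcagcTTTCTTTTtctctagacac
Lgals9, first matching base at 16, reverse complement, chr11:78984891-78984920: aatagctgtggTTTCTGTTtcctagctcag
Lgals3bp, first matching base at -14, chr11:118401955-118401984: tgttttctgaaAATCGAAActaggtgaggt
Positions are counted from the annotated start, with negative numbers before it. The AP-1 motif TGANTCA (7.81% of all windows), the STAT motif TTCNNNGAA (8.30%) and the PU.1 motif GAGGAAGT (3.20%) were found in none of the 7 windows. A match gives the letters in a window and not a bound site, and the search was chosen after the pairs had been seen.

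Galectins act through glycoproteins, and 24 genes of known ligands, receptors and partners were counted beside them, of which 22 were tested. The list was chosen with earlier results of these data known, so its counts describe these genes and do not test them as a set. In vehicle-treated compared to naïve mice, 13 rose and 0 fell, where 4.91% and 2.89% of all tested genes did, and the median log2 fold change was 0.85. Msr1, a scavenger receptor of macrophages, rose most (log2 fold change 4.74, SE 0.94, edgeR adjusted p = 0.0255), from a mean of 0.248 to 6.76 CPM. Trem2, a lipid receptor of microglia that binds galectin-3, rose from 1.57 to 21.5 CPM (log2 fold change 3.78, SE 0.75, edgeR adjusted p = 0.0288), and Havcr2, the receptor of galectin-9, from 0.302 to 3.67 CPM (log2 fold change 3.59, SE 0.74, adjusted p = 0.0250). Ptprc, which encodes the leukocyte protein CD45 (log2 fold change 2.78), Itgb2 (2.55) and Itgam (2.07), the subunits of an integrin of myeloid cells, also rose past the cut-off, with edgeR adjusted p-values from 0.0189 to 0.0269. The genes past the cut-off are genes of macrophages, microglia and other immune cells, and most microglial markers rose as well. The part of these cells in the counts of the list was not tested.

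With TD139 compared to vehicle, 12 of the 22 fell and 0 rose, where 16.2% and 17.2% of all tested genes did, and the median log2 fold change was -0.61. Msr1 (log2 fold change -3.96), Trem2 (-2.76), Ptprc (-2.62), Havcr2 (-2.50) and Itgb2 (-2.48) fell past the cut-off, with edgeR adjusted p-values from 0.00635 to 0.0212. Itgam fell by less (-1.77, adjusted p = 0.0147). The most abundant genes of the list by count were called lower as well. Lamp1, a heavily glycosylated protein of lysosomes, had log2 fold changes of 0.22 with light and vehicle (edgeR adjusted p = 0.140) and -0.31 with TD139 compared to vehicle (adjusted p = 0.0215), P4hb, a protein disulfide isomerase that binds galectin-9 at the cell surface, 0.01 (adjusted p = 0.973) and -0.28 (adjusted p = 0.0306), and Slc3a2, which encodes the galectin-3 ligand CD98, 0.55 (adjusted p = 0.0286) and -0.87 (adjusted p = 0.00500).

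Compared to naïve mice, 2 of the 22 genes rose in TD139-treated mice and 0 fell, where 2.72% and 2.38% of all tested genes did. These were Lamp2, a lysosomal protein (log2 fold change 0.60, edgeR adjusted p = 0.0487), and Cd47, which signals against phagocytosis (0.42, adjusted p = 0.0432), both named after their values were seen. The median was 0.24, and both calls were lost when the first or second naïve mouse or any vehicle-treated mouse was left out, and without TD139-treated mouse 2 or 3. In this comparison 0 of all tested genes were called when any 1 of 5 mice was left out (naïve 1 and 2, vehicle 2, TD139 2 and 3). Calcoco2, the adaptor that galectin-8 recruits to damaged vesicles, had 0 counts in all 9 mice and Spn too few to be tested. As for all tested genes, fewer genes of the list were called without single mice, with 0 or 1 gene called in vehicle-treated compared to naïve mice without naïve mouse 1 or 2 or without vehicle-treated mouse 3, 4 without naïve mouse 3 and 3 without vehicle-treated mouse 1. For TD139 compared to vehicle, 4 and 5 were called without TD139-treated mice 2 and 3.

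**Figure D5:**
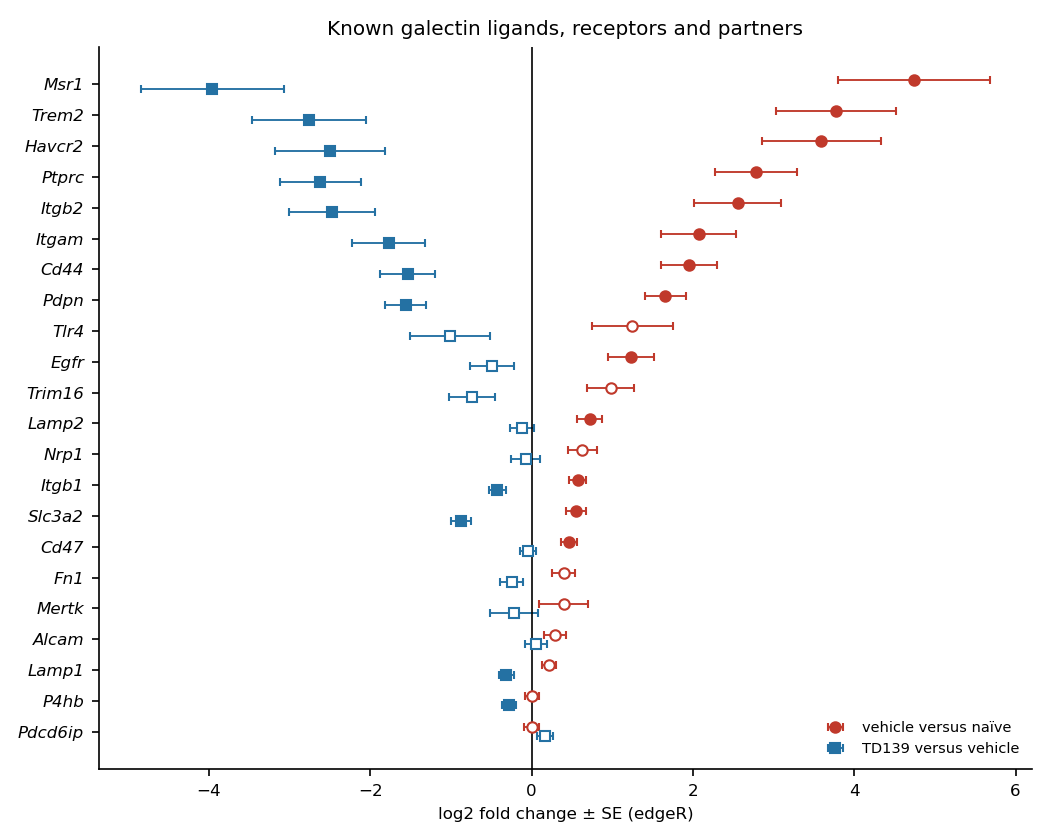
Points give the log2 fold change ± SE of 22 ligands, receptors and partners of galectins, ordered by their change with light and vehicle, with filled symbols for an edgeR adjusted p under 0.05. The receptors at the top, from Msr1 to Itgb2, lie above 2 with light and vehicle and below -2 with TD139 compared to vehicle, while genes at the bottom such as P4hb lie near 0.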

How the data were processed

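Poly(A) RNA libraries (Illumina Stranded mRNA Prep) were made from the retinas of 9 mice and sequenced as single reads in 2 runs. For each of the 18 resulting files, the authors deposited whole-number counts per gene symbol from BaseSpace RNA Express, without normalization. The build is mm10 in the submitters' processing notes, whereas the annotation and strand setting of the counting are not given in the sources used here. Reads outside genes (16.5 to 22.8% of the reads, highest with TD139) and ambiguous reads (0.303 to 0.471%) entered neither library sizes nor tests.

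Counts of both runs were summed for each mouse, which is the replicate. The labels number the mice separately, and runs of 1 mouse differed far less than mice (chi-square per degree of freedom 1.60 to 1.76 against 14.8 to 65.3). All 9 mice were fitted together with edgeR 4.0.16 in R 4.3.3 (filterByExpr, TMM, robust quasi-likelihood test). The Benjamini-Hochberg adjustment covered 15196 genes, and an adjusted p under 0.05 was called. The steps were run on simulated counts in which every gene had the same dispersion. Such counts do not cover the differences between these mice, so they give no measure of false calls here. Positions and transcript lengths are from GENCODE M21 (GRCm38), to which 98.5% of the symbols were joined, 21777 by the symbol itself and 1285 by an older one. Level comparisons between genes used the longest transcript.

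The members and gene lists were chosen with earlier results of these data known. All members were named. From the ligand and receptor list, the 3 genes with the highest mean count and those past the cut-off were named, and as like genes the 5 with the highest r. Genes may meet these rules and not be named. Alternatives were RLE or library-size normalization, DESeq2 1.42.0, limma 3.58.1 voom with quality weights, other filters, only the groups compared, the replicate number as a block, an offset for length and GC content, single runs, other marker scales and each mouse left out in turn.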

Additional observations from a re-analysis of the deposited data

How the results depend on the processing

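With 3 mice a group, the counts of members called depended on single mice. Over the 9 mice left out, 0 to 5 members were called in vehicle-treated compared to naïve mice (4 with all mice), 2 to 6 in TD139-treated compared to vehicle-treated mice (5 with all mice, 2 without TD139-treated mouse 2 or 3) and 0 to 1 in TD139-treated compared to naïve mice. The ranges of the ligand and receptor list were 0 to 15, 4 to 12 and 0 to 3 genes. Over all tested genes, 1 to 1982 were called in the first comparison (1185 with all mice), 1626 to 5926 in the second (5072) and 0 to 2679 in the third (775). Over the 12 other settings the 3 counts of members were 3 to 6, 4 to 7 and 0 to 3. The 3 calls against naïve mice came from limma voom, which called 36.0% of all tested genes there, and were Lgals1 (-0.94), Lgals8 (0.26) and Lgalsl (0.32). In that comparison, the list had 2 genes called, and 1 with library size alone, 4 with DESeq2 (17.3% of all tested genes), 7 with limma voom and 0 with only the groups compared, with the replicate block, with the correction for length and GC content (alone or with the block) and with the first run only. Over all tested genes, 1 was called with only the groups compared and 0 with the block or the correction. No called change of a member had another sign under any of these settings, and the causes of the lost calls were not tested.

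The replicate numbers did not pair the mice, since the deviations of same-numbered mice from their group means correlated between -0.259 and 0.282 and over 0.1 in 2 of 9 pairs. With the replicate block, 3, 5 and 0 members were called, beside 900, 4772 and 0 of all tested genes. Lgals3bp lost its call compared to naïve mice under the block (log2 fold change 1.95, edgeR adjusted p = 0.0895), under the block with the correction for length and GC content (1.75, adjusted p = 0.0688) and without a filter on low counts (2.01, adjusted p = 0.0643). Log2 fold changes rose with transcript length across 15070 genes in TD139-treated compared to vehicle-treated mice (Spearman's rho 0.490, genes not being independent) and compared to naïve mice (0.586). With the correction, the changes for TD139 compared to vehicle were -1.60 for Lgals1, -2.54 for Lgals3, -1.70 for Lgals3bp, -1.42 for Lgals9 and 0.43 for Lgalsl, all with an adjusted p under 0.05, whereas with the correction and the block together Lgals3bp (-1.62, edgeR adjusted p = 0.0767) and Lgals9 (-1.30, adjusted p = 0.0528) were not called. With the correction alone, 6 and 7 members were called in the first and second comparison, beside 2852 and 3471 of all tested genes. At the depth of these libraries, Lgals2 could not be tested.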
